A study of Homo sapiens with 9 samples.

Results

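The genes described here are 10 genes of lipid droplets and fatty acid storage, chosen by name from 38021 genes in the table: PLIN2, PLIN3, HILPDA, PNPLA2, DGAT1, DGAT2, LPIN1, VLDLR, CD36 and CPT1A. All 10 were found under these symbols. RNA was sequenced from 786O cells, an established human line from a clear cell renal cell carcinoma (ccRCC) that has no functional VHL, so that HIF2α is stable at normal oxygen in all 3 groups. Cells carried a lentiviral pLKO.1 short hairpin RNA (shRNA) that was non-targeting (shControl), or aimed at ARNT (the group shARNT) or at BMAL1 (the group shBMAL1), and all 3 groups went through puromycin, at 2.5 µg/mL for 1 week and then at 1.25 µg/mL. Each group was represented by 3 libraries of selected cells, labelled as biological replicates, and whether they came from a shared cell pool is not stated. The study's methods also list an independent BMAL1 hairpin, which the labels do not name. With no group for another hairpin, a hairpin and its target cannot be told apart.

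A lipid droplet is a core of triglyceride and steryl ester under a single layer of phospholipid, to which coat proteins bind. Fatty acids reach it from the medium through lipoprotein receptors and transporters, are joined to glycerol by acyltransferases, and leave it through lipases, after which the carnitine shuttle takes them into mitochondria for oxidation. Clear cell carcinoma owes its pale cytoplasm to such droplets and to glycogen. ARNT is the usual partner of the HIF alpha subunits, and BMAL1 (listed as ARNTL) is a related protein that pairs with CLOCK in the circadian clock. The comparisons ask how each partner bears on the messenger RNAs that build, coat and empty the droplet.

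The promoters of the coat gene PLIN2, its relative PLIN3, the receptor VLDLR and the carnitine enzyme CPT1A are shown. These 4 genes were picked with their changes in the knockdowns known. PLIN2 and CPT1A moved in the same directions, higher in shARNT and lower in shBMAL1. The 250 bases before the RefSeq transcription start (GRCh38.p14) are written on the strand of the gene, and capitals mark ACGTG or GCGTG, the cores of the hypoxia response element that HIF dimers bind, and CACGTG, the E-box that BMAL1 with CLOCK binds, on either strand. An ACGTG lies within every CACGTG, on both strands, and read from the other strand ACGTG and GCGTG appear as CACGT and CACGC.
PLIN2, chr9:19127493-19127742, minus strand: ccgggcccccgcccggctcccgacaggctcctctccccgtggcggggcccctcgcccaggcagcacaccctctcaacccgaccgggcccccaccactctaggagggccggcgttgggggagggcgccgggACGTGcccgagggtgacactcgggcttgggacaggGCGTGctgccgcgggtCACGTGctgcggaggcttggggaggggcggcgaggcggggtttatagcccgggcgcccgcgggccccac
PLIN3, chr19:4867668-4867917, minus strand: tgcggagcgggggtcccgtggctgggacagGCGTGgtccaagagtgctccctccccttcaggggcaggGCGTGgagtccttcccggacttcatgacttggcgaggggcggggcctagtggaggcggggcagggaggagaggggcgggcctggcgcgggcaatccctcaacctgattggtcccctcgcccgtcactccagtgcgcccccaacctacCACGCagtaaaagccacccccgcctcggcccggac
VLDLR, chr9:2621537-2621786, plus strand: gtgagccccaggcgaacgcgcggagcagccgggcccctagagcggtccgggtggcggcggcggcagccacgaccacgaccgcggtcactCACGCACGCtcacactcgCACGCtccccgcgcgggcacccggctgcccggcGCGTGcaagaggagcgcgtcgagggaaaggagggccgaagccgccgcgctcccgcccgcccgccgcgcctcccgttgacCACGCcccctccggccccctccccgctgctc
CPT1A, chr11:68844278-68844527, minus strand: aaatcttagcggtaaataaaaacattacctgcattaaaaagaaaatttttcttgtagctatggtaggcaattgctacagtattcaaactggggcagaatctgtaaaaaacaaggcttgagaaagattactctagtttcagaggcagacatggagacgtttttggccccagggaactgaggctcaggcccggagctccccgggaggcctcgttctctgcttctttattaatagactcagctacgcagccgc
The PLIN2 stretch held a CACGTG from 69 to 64 bases before the start, a further ACGTG at 120 to 116 and a GCGTG at 85 to 81. The VLDLR stretch held GCGTG at 5 places and the PLIN3 stretch at 3, with neither ACGTG nor CACGTG in them, and the CPT1A stretch held none of the 3 motifs. Of 34943 RefSeq promoters searched over the same length, 18.5% held ACGTG, 32.2% GCGTG and 6.32% CACGTG. RefSeq promoters were matched for 7 of the 10 genes, all but DGAT1, DGAT2 and HILPDA. PNPLA2 had none of the motifs before its start, while LPIN1 had a GCGTG at 1 of 3 starts and CD36 at 1 of 6. These matches describe the letters in the window and do not locate a binding site.

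Library totals ran from 33793067 to 35444757 reads. ARNT fell from 2352 normalised counts in shControl to 1225 in shARNT (log2 fold change −0.94, SE 0.07, adjusted p = 8.62e-35), and BMAL1 fell from 761.1 to 325.9 in shBMAL1 (−1.23, SE 0.11, adjusted p = 2.5e-25). The RNA of the untargeted partner also fell, ARNT with a log2 fold change of −0.23 in shBMAL1 (adjusted p = 0.0187) and BMAL1 with −0.26 in shARNT (adjusted p = 0.0293). For protein, by contrast, the study described a slight increase of each partner when the other was depleted. Every one of 12 renal tubule and ccRCC markers was present at a mean of 10 normalised counts or more. Among markers of other cells, ADIPOQ, LEP, CIDEA and ADRB3 of fat cells were at 0 in all 9 libraries (up to 3 counts in each are allowed by a 0), and 1 of 8 fat cell markers, LIPE, reached a mean of 10, at summed levels of 115 to 142.5, 118.9 to 158.1 and 75.5 to 126 in shControl, shARNT and shBMAL1. The 8 hepatocyte markers summed to between 5460 and 5714, 2384 and 2601, and 10135.6 and 12453 in the same order, nearly all of it SERPINA1, with ALB at 15 reads over the 9 libraries and G6PC and APOC3 at 0. The 8 macrophage markers, of which 3 reached a mean of 10, ran from 7603 to 8351, 7058 to 7630 and 5575 to 7013, mostly CD68, while PTPRC had 3 reads in all. The 8 endothelial and fibroblast markers, of which 3 reached that mean and CDH5 was at 0, summed to at most 155.7 in shControl and 115.3 in shARNT and to between 235 and 267.1 in shBMAL1, led by LUM. The share of reads from mitochondrial genes was 6.25% ± 0.859 in the shControl libraries, 8.11% ± 0.605 in those with shARNT and 9.40% ± 0.540 in those with shBMAL1 (SD, n = 3), and every member kept its call in a fit without those genes. The part of the marker shifts in the results below was not tested. In bulk RNA, fewer cells with a transcript and less of it per cell cannot be told apart.

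Normalised read counts are counts divided by DESeq2 size factors estimated over the 9 libraries, given as mean ± SD with n = 3. A gene was called lower or higher at a DESeq2 adjusted p under 0.1, the threshold of the study, and log2 fold changes carry a standard error (SE). In shARNT 9 of the 10 genes were tested and 7 were called, 3 lower and 4 higher, where 35.4% of 15171 genes were called, 19% lower and 16.5% higher. In shBMAL1 all 10 were tested and 8 were called, 6 lower and 2 higher, where 36.8% of 19047 genes were called, 19.4% lower and 17.4% higher. Between shBMAL1 and shARNT, the direct comparison, 8 of 10 were called, 5 lower and 3 higher in shBMAL1, where 36.3% of 17728 genes were called, 18.6% lower and 17.8% higher. The median log2 fold change of the tested members was 0.08 in shARNT, −0.35 in shBMAL1 and −0.34 in the direct comparison, against 0.003, 0.02 and 0.01 over all genes tested. Since shARNT and shBMAL1 were set against the same shControl libraries, whether they differ is answered by the direct comparison.

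**Figure D1:**
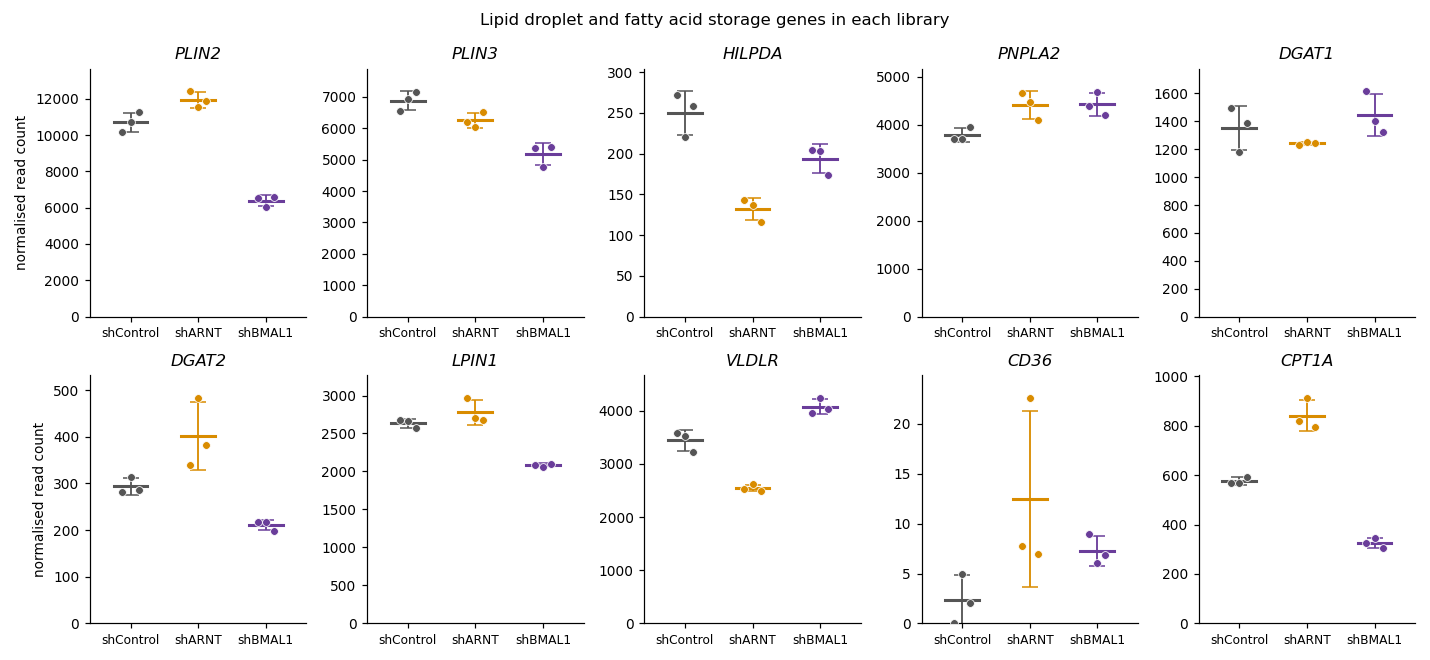
Normalised read counts of the 10 genes (vertical axes, linear from 0) in the shControl, shARNT and shBMAL1 libraries (horizontal axes). Points are libraries, thick lines means and bars ± SD with n = 3 (the CD36 bar is cut at 0). PLIN2 in shBMAL1 lies between 6052 and 6565, below every other library, and CPT1A takes 3 separate levels.

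In shControl the coat genes were the most abundant of the set. Per kilobase of merged exon, PLIN3 stood at 2514 ± 110 normalised counts and PLIN2 at 2137 ± 107, which placed them at rank 434 and 557 of 13545 genes whose mean reached 10 normalised counts. The lipase PNPLA2 followed at 989, then DGAT1 at 328, LPIN1 at 222 ± 5.02, VLDLR at 208 ± 11.96, HILPDA at 121, CPT1A at 87.7, DGAT2 at 37.1 and CD36 at 0.215 per kilobase. LPIN1 and VLDLR overlapped in their ranges per kilobase (216.6 to 225.9 against 194.7 to 216.8), and the other neighbours in this order did not. Merged exons hold every annotated exon, 5011 bases for PLIN2 and 2739 for PLIN3, whichever transcripts the cells use. Ranks, shares and ratios between genes depend on these lengths. Before division by length, PLIN2 stood above PLIN3 in shControl (10706.9 against 6885 normalised counts).

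**Figure D2:**
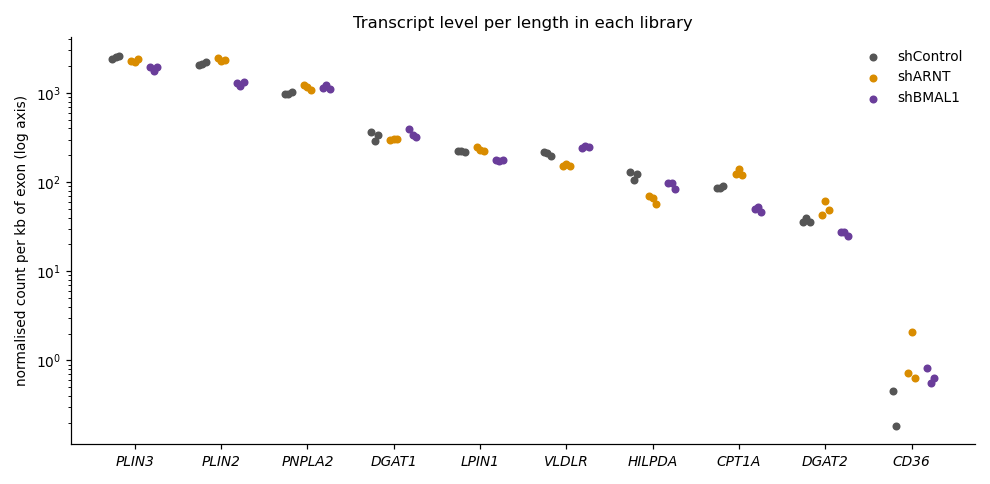
Normalised count per kilobase of merged exon (vertical axis, log scale) for the 10 genes ordered by their shControl mean. Points are libraries coloured by group, and the shControl library with no CD36 read cannot be drawn on this axis. PLIN3 and PLIN2 lie near the top, and CD36 lies below 1 in every library except 1 of shARNT.

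PLIN2, the droplet coat protein that is degraded when it is not bound to lipid, fell in shBMAL1 and rose slightly in shARNT. The gene lies on chromosome 9 from 19108373 to 19149288 on the minus strand (GRCh37). Its normalised read counts were 10179.5, 10694 and 11247.5 in shControl, 12419, 11523 and 11868 in shARNT, and 6539, 6052 and 6565 in shBMAL1. The 3 groups did not overlap, with shBMAL1 far below the others and shARNT just above shControl. PLIN2 fell by 40.4% in shBMAL1 (log2 fold change −0.75, SE 0.07, adjusted p = 1.13e-27), rose by 11.7% in shARNT (0.16, SE 0.05, adjusted p = 0.013), and differed between shBMAL1 and shARNT by −0.90 (SE 0.06, adjusted p = 1.49e-43). The small rise in shARNT lost its call without shControl library 1 (0.12, adjusted p = 0.13). Its promoter, printed above, is the one among the 4 that holds CACGTG. CPT1A, whose printed stretch holds none of the motifs, also fell in shBMAL1 (log2 fold change −0.83, SE 0.12). A part of the motif in these changes was not tested.

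PLIN3 is a coat protein that moves from the cytosol onto newly made droplets, and it was lower in both knockdowns. It lies on chromosome 19 from 4838353 to 4867706 on the minus strand. The libraries read 6559, 6942 and 7152 in shControl, 6210, 6043 and 6512 in shARNT, and 5372, 4777 and 5399 in shBMAL1. Again no group overlapped another, and shARNT stood between the other two. The fall was 24.8% in shBMAL1 (−0.41, SE 0.07, adjusted p = 8.84e-08), and the direct comparison put shBMAL1 below shARNT (−0.27, SE 0.07, adjusted p = 6.42e-04). In shARNT the decrease was 0.14 on the log2 scale (log2 fold change −0.14, SE 0.05, adjusted p = 0.0476), and its call was lost in a single fit of all 9 libraries (adjusted p = 0.101) and without shControl library 2 or 3 or shARNT library 1 or 2 (adjusted p = 0.143, 0.208, 0.128 and 0.222).

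The remaining perilipins were nearly silent. PLIN1, the coat protein of fat cells, had 1 to 8 reads per library, PLIN4 had 8 to 26, and PLIN5, the perilipin of oxidative tissue, had no reads in 8 libraries and 2 in the other. PLIN2 and PLIN3 therefore made up almost the whole perilipin transcript pool, and its makeup shifted. PLIN2 was 45.9% ± 0.251 of the summed perilipin level per kilobase in shControl, 51.0% ± 1.16 in shARNT and 40.2% ± 0.563 in shBMAL1 (n = 3). The size of these shares depends on the exon lengths used. These shares did not overlap between groups, but 3 against 3 libraries allow no exact two-sided permutation p below 0.1.

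PNPLA2, the lipase ATGL that removes the first fatty acid from a triglyceride, rose by similar amounts in both knockdowns. It lies on chromosome 11 from 818914 to 825573 on the plus strand. Its libraries read 3713, 3704 and 3947 in shControl, 4661, 4482 and 4090 in shARNT, and 4390, 4677 and 4206 in shBMAL1. All 6 knockdown libraries were above all 3 controls, and the knockdowns overlapped each other. The log2 fold change was 0.22 in shARNT (SE 0.06, adjusted p = 0.00214) and again 0.22 in shBMAL1 (SE 0.07, adjusted p = 0.00602). The difference between them was 0.003 with a 95% interval from −0.14 to 0.15 (adjusted p = 0.985).

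HILPDA, a small hypoxia-inducible protein that binds ATGL and inhibits it, went the other way. It lies on chromosome 7 from 128095903 to 128098472 on the plus strand. The counts were low enough for the libraries to be shown individually: 271.7, 219.9 and 257.8 in shControl, 143.2, 136.5 and 116.3 in shARNT, and 204.5, 203.6 and 173.3 in shBMAL1. The shARNT libraries were the lowest, shBMAL1 lay in between, and no group overlapped another. HILPDA fell by 47.0% in shARNT (−0.92, SE 0.17, adjusted p = 9.77e-07) and stayed called in all 15 alternatives. In shBMAL1 the log2 fold change was −0.37 (SE 0.16, adjusted p = 0.0662), which was lost in 7 of 15 alternatives, among them without shControl library 1 or 3 or shBMAL1 library 2 or 3 (adjusted p = 0.252, 0.192, 0.112 and 0.251). Levels were higher in shBMAL1 than in shARNT by 0.55 (SE 0.18, adjusted p = 0.00988).

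The level of the lipase relative to this inhibitor, both per kilobase, was 8.25 ± 0.858 in shControl, 18.1 ± 0.778 in shARNT and 12.4 ± 0.758 in shBMAL1 (n = 3). The ratio was above every control in all 6 knockdown libraries and highest in shARNT. G0S2, another inhibitor of ATGL and no member of the 10, fell from 236 ± 36.2 normalised counts in shControl to 97.0 ± 5.46 under shARNT (−1.28, SE 0.19, adjusted p = 1.05e-10) and to 75.1 ± 17.9 in shBMAL1 (−1.66, SE 0.21, adjusted p = 1.78e-13). The difference between knockdowns was −0.37 (SE 0.25, adjusted p = 0.286). ABHD5, the ATGL coactivator named here for its role and outside the naming rule, was at 859 ± 93.2, 835 ± 52.0 and 794 ± 67.2 and was not called in any comparison (adjusted p = 0.824, 0.466 and 0.646).

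**Figure D3:**
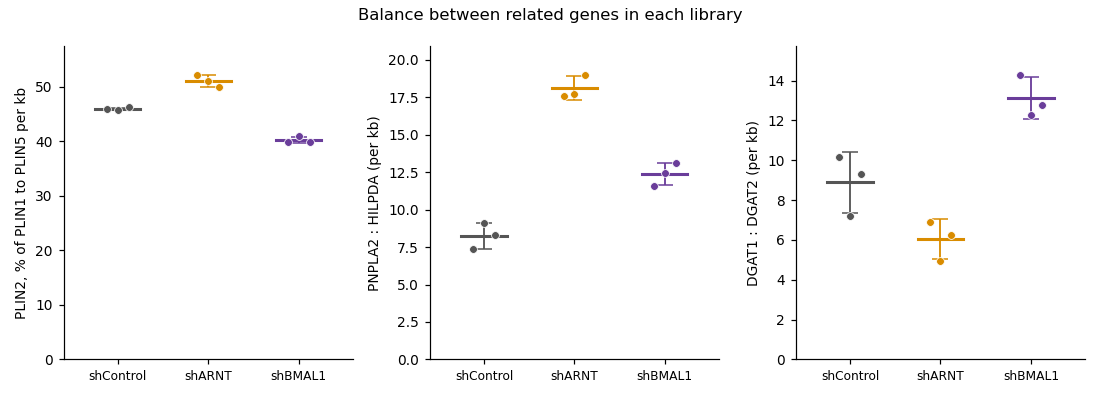
Balance between related genes in each library, with groups on the horizontal axes: PLIN2 as a percentage of the 5 perilipins, and the ratios PNPLA2 to HILPDA and DGAT1 to DGAT2, all from levels per kilobase on linear axes from 0. Points are libraries, lines means and bars ± SD (n = 3). PNPLA2 to HILPDA is highest in shARNT (18.1), whereas DGAT1 to DGAT2 is highest in shBMAL1 (13.1).

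The last step of triglyceride synthesis is shared by 2 unrelated enzymes, DGAT1 and DGAT2, and DGAT2 was called in every comparison. DGAT2 lies on chromosome 11 from 75470557 to 75512580 on the plus strand. It read 280.7, 314.9 and 285.1 normalised counts in shControl, 340, 483.2 and 381.7 in shARNT, and 216.5, 217.7 and 198.8 in shBMAL1. The groups did not overlap, and shARNT was the most spread because of library 2. DGAT2 was higher in shARNT by 0.46 (SE 0.14, adjusted p = 0.00755), which was lost without that library (0.30, adjusted p = 0.157). It was lower in shBMAL1 (−0.48, SE 0.15, adjusted p = 0.00493) and differed between the knockdowns by −0.93 (SE 0.15, adjusted p = 2.77e-08).

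DGAT1, on chromosome 8, read 1495, 1183 and 1387 in shControl, 1230, 1250 and 1246 in shARNT, and 1617, 1400 and 1326 in shBMAL1. Both knockdowns overlapped the controls. Its log2 fold change was −0.12 in shARNT (95% interval −0.29 to 0.05, adjusted p = 0.316) and 0.09 in shBMAL1 (−0.11 to 0.30, adjusted p = 0.556). The direct comparison called it higher in shBMAL1 by 0.22 (SE 0.09, adjusted p = 0.0477), and this was lost without shARNT library 1, 2 or 3 or shBMAL1 library 1 (adjusted p = 0.15, 0.127, 0.128 and 0.263). Without shControl library 2 it was called lower in shARNT (−0.21, adjusted p = 0.0559). DGAT1 shares 137 exon bases with HSF1 on the opposite strand, and no source used here says whether strand was used in counting. The ratio of DGAT1 to DGAT2 per kilobase was 8.90 ± 1.55, 6.04 ± 1.00 and 13.1 ± 1.04 in shControl, shARNT and shBMAL1 (n = 3).

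LPIN1 makes the diacylglycerol that the DGAT enzymes use, by removing the phosphate of phosphatidic acid. The gene lies on chromosome 2 from 11817721 to 11967535 on the plus strand. Libraries gave 2679, 2662 and 2569 normalised counts in shControl, 2967, 2700 and 2672 in shARNT, and 2091, 2064 and 2104 in shBMAL1. The shBMAL1 libraries were tightly grouped and below all others, and shARNT overlapped shControl. LPIN1 fell by 0.34 on the log2 scale in shBMAL1 (log2 fold change −0.34, SE 0.07, adjusted p = 7.05e-06), was at 0.08 in shARNT (95% interval −0.05 to 0.20, adjusted p = 0.383), and fell short of shARNT in the shBMAL1 libraries (−0.41, SE 0.07, adjusted p = 1.64e-07). Of its paralogs, LPIN2 fell in shBMAL1 as well (−0.50, SE 0.09, adjusted p = 5.34e-07) and in shARNT at the edge of the threshold (−0.17, SE 0.08, adjusted p = 0.098). LPIN3 was lower in shARNT (−0.20, SE 0.09, adjusted p = 0.0651) and at −0.006 in shBMAL1 (95% interval −0.21 to 0.19, adjusted p = 0.976). LPIN1 held 27.2% ± 0.733, 31.0% ± 0.220 and 25.1% ± 1.72 of the lipin level per kilobase in shControl, shARNT and shBMAL1 (n = 3), with shBMAL1 overlapping shControl.

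VLDLR, a receptor that binds triglyceride-rich lipoproteins, moved in opposite directions in the knockdowns. The gene lies on chromosome 9 from 2621182 to 2660056 on the plus strand. Its libraries read 3578, 3528 and 3214 in shControl, 2531, 2616 and 2488 in shARNT, and 3954, 4236 and 4037 in shBMAL1. No group overlapped another, with shARNT lowest and shBMAL1 highest. VLDLR fell by 25.9% in shARNT (−0.43, SE 0.06, adjusted p = 1.33e-10) and rose by 18.3% in shBMAL1 (0.24, SE 0.07, adjusted p = 0.00303). The knockdowns differed by 0.68 (SE 0.07, adjusted p = 3.08e-22). VLDLR shares 260 exon bases with VLDLR-AS1 on the opposite strand, which was far less abundant at a mean of 37.9 normalised counts and had a log2 fold change of 0.79 in the direct comparison (SE 0.35, adjusted p = 0.0752). It shares 1100 more with the opposite-strand non-coding gene ENSG00000286670, which has no level in these data. Other members also overlap non-coding genes without a level, the largest share being 18.3% of the exon bases of PLIN3.

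LRP8, a receptor related to VLDLR, did not rise with it in shBMAL1. It fell by 50.8% there (−1.02, SE 0.07, adjusted p = 2.76e-46), and was lower in shARNT too (−0.20, SE 0.06, adjusted p = 0.00286), with a direct difference of −0.82 (SE 0.07, adjusted p = 1.61e-28). In shARNT VLDLR and LRP8 were thus both lower, and in shBMAL1 they moved in opposite directions.

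CD36, the fatty acid translocase of fat cells, muscle and macrophages, was barely detected. The gene spans chromosome 7 from 79998891 to 80308593. The libraries held 0, 5 and 2 reads in shControl, 8, 23 and 7 in shARNT, and 9, 6 and 7 in shBMAL1. Sums were 7, 38 and 22 reads over 3 libraries each, with 23 of the 38 in shARNT from library 2. CD36 lay under the low-count filter in shARNT and had no adjusted p there, but was called without that filter (2.41, SE 0.98, adjusted p = 0.0745) and with TMM size factors (adjusted p = 0.0495). In shBMAL1 its log2 fold change was 1.63 (SE 1.08, adjusted p = 0.268), and the direct comparison gave −0.78 (SE 0.73, adjusted p = 0.472).

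CPT1A, the enzyme that couples fatty acids to carnitine so that they can enter mitochondria, had the largest difference between knockdowns of the 10 genes by log2 fold change. It lies on chromosome 11 from 68522088 to 68611878 on the minus strand. The libraries read 567.5, 567.8 and 593.4 normalised counts in shControl, 816.5, 911.4 and 793.2 in shARNT, and 324.7, 343.7 and 303.6 in shBMAL1. Each group formed its own level, with shARNT highest and shBMAL1 lowest. CPT1A rose by 46.2% in shARNT (0.55, SE 0.09, adjusted p = 1.24e-07) and fell by 43.9% in shBMAL1 (−0.83, SE 0.12, adjusted p = 1.39e-11). The direct difference was −1.38 (SE 0.11, adjusted p = 8.69e-33). CPT1B, the muscle form, had 15 to 28 reads per library and CPT1C, the brain form, at most 4, so that CPT1A made up 95.3% ± 0.437, 97.0% ± 0.184 and 88.1% ± 1.201 of the CPT1 level per kilobase (n = 3).

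**Figure D4:**
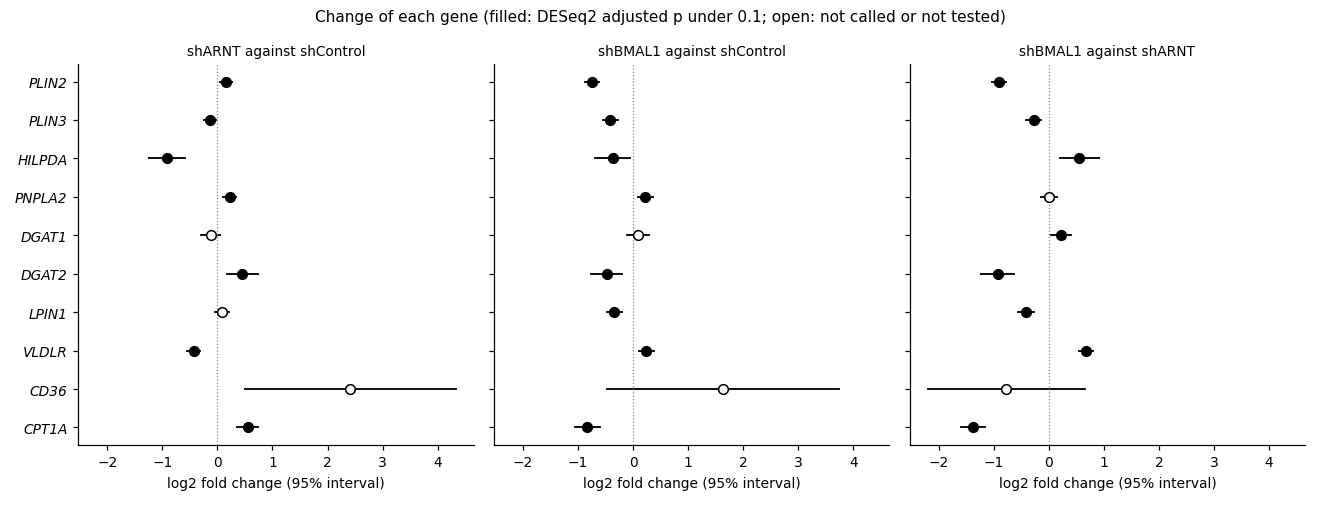
Log2 fold change (horizontal axes) of each gene in the 2 knockdowns against shControl and, at the right, in shBMAL1 against shARNT. Points are DESeq2 estimates, bars 95% intervals, filled points genes called at an adjusted p under 0.1. PLIN2, DGAT2, VLDLR and CPT1A were called on opposite sides of 0 in the 2 knockdowns (0.16 and −0.75, 0.46 and −0.48, −0.43 and 0.24, 0.55 and −0.83). The wide bars are those of CD36.

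In order of role, the coat genes (PLIN2, PLIN3) and the synthesis genes DGAT2 and LPIN1 were all lower in shBMAL1 than in shARNT, as was CPT1A, whereas VLDLR, HILPDA and, less firmly, DGAT1 were higher in shBMAL1. In the direct comparison PLIN2, DGAT2, VLDLR and CPT1A were called with an estimated change of more than 1.5-fold, beside 2058 of 17728 genes tested.

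A list of 121 other genes of lipid storage and fatty acid use, sorted into 8 roles, was found in full in the table. In shARNT 96 were tested, of which 23 were lower and 20 higher, or 44.8% called against 35.4% of all genes, with a median log2 fold change of 0.01. In shBMAL1 101 were tested, of which 30 were lower and 19 higher, or 48.5% called against 36.8%, with a median of −0.05. The direct comparison called 28 of 100 lower and 19 higher, or 47% against 36.3%, with a median of −0.02. The shares called were thus above those over all genes tested, while the medians were near the 0.003, 0.02 and 0.01 over all genes. The share over all genes depends on how many low-count genes are tested. Among genes with at least 10 counts in at least 3 libraries, 5633 of 15676 were called in shARNT. In shBMAL1 7239 of 15864 were called and in the direct comparison 6655 of 15907, shares nearer to those of the list. No test was made of the shares or the medians.

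Fatty acid activation was the role with most of its tested genes lower in shBMAL1. These enzymes attach coenzyme A to a fatty acid before it is stored or oxidised. Of 7 tested, 5 were lower and 1 higher in shBMAL1, against 1 lower and 2 higher in shARNT, and in the direct comparison 5 were lower and 1 higher, with medians of −0.38, 0.07 and −0.39. Over all genes 19.4% were lower and 17.4% higher in shBMAL1, and 18.6% and 17.8% in the direct comparison. The 3 of 7 called in shARNT, 42.9%, stand beside 35.4% of all genes. The 5 lower in shBMAL1 were ACSL1, ACSL3, ACSL4, ACSL5 and ACSS2, of which the first 3 were named after their values were seen. ACSL1 fell from 2663 ± 15.7 to 1554 ± 51.9 (−0.78, SE 0.07, adjusted p = 6.23e-26), ACSL3 from 8176 ± 209 to 5355 ± 602 (−0.61, SE 0.08, adjusted p = 5.81e-13) and ACSL5 from 203 ± 37.4 to 102 ± 19.7 (−0.997, SE 0.21, adjusted p = 1.83e-05). ACSS2, which activates acetate, was also lower in shARNT (−0.20, SE 0.08, adjusted p = 0.0375). ACSM3, an enzyme for medium-chain fatty acids, was higher in shBMAL1 (1.30, SE 0.09, adjusted p = 4.82e-49) and in shARNT (0.53, SE 0.09, adjusted p = 9.61e-08).

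Uptake and binding genes moved in both directions. In shBMAL1 8 of 16 tested were lower and 5 higher, and in shARNT 7 of 14 were lower and 2 higher, with medians of −0.31 and −0.18. The shares called were 81.2% and 64.3%, where 36.8% and 35.4% of all genes were called. The direct comparison called 5 of 15 lower and 7 higher, beside 18.6% lower and 17.8% higher over all genes. ANGPTL4, a secreted inhibitor of lipoprotein lipase, fell from 2983 ± 259 to 1355 ± 49.6 in shARNT (−1.14, SE 0.07, adjusted p = 7.68e-50) and to 1391 ± 207 in shBMAL1 (−1.10, SE 0.10, adjusted p = 1.64e-25), with a direct difference of 0.04 (SE 0.10, adjusted p = 0.846). MSR1, a scavenger receptor, was higher in shARNT (0.41, SE 0.16, adjusted p = 0.0339) and higher in shBMAL1 too (0.75, SE 0.16, adjusted p = 1.63e-05), with a direct difference of 0.34 (SE 0.15, adjusted p = 0.0666). FABP1, the liver fatty acid-binding protein, was almost absent from shControl (1.01 ± 1.01) and shARNT (6.57 ± 4.11) and stood at 117 ± 4.84 under shBMAL1. It reached the mean of 50 normalised counts needed for naming through the shBMAL1 libraries alone, so these levels are a description.

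Other droplet proteins and lipases moved in both directions. Among 18 droplet proteins, 1 of 12 tested was lower and 3 higher in shARNT, and 2 of 14 were lower and 2 higher in shBMAL1. CAVIN1, a caveolar coat protein found on fat droplets, was lower in shARNT (−0.24, SE 0.06, adjusted p = 6.59e-04) and likewise lower in shBMAL1 (−0.28, SE 0.09, adjusted p = 0.00756). FITM2, which helps droplets to bud, was lower in shBMAL1 (−0.33, SE 0.13, adjusted p = 0.0284), and METTL7B was higher in shARNT (0.53, SE 0.21, adjusted p = 0.0371) as well as in shBMAL1 (0.51, SE 0.22, adjusted p = 0.0627). Of 12 lipases and regulators tested in each knockdown, 5 were lower and 1 higher in shARNT and 3 lower and 1 higher in shBMAL1. The shares called were 33.3% and 28.6% for droplet proteins and 50% and 33.3% for lipases in shARNT and shBMAL1, beside 35.4% and 36.8% of all genes. The 1 higher in shARNT was SPART (0.21, SE 0.07, adjusted p = 0.00789). MGLL, which splits the last fatty acid from glycerol, was higher in shBMAL1 (0.38, SE 0.08, adjusted p = 3.77e-05) and lower in shARNT (−0.17, SE 0.06, adjusted p = 0.0115).

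Triglyceride synthesis had 3 of 14 tested genes lower and 3 higher in shARNT, and 3 lower and 1 higher in shBMAL1. At 42.9% and 28.6%, these shares lay near or below the 35.4% and 36.8% of all genes. The direct comparison called 6 of 14 lower and 2 higher, or 57.1% beside 36.3% of all genes. GPAT3, which starts glycerolipid synthesis, was lower in shBMAL1 (−0.65, SE 0.08, adjusted p = 6.36e-14) and at −0.04 in shARNT (SE 0.07, adjusted p = 0.707), and the direct difference was −0.60 (SE 0.08, adjusted p = 2.84e-12). AGPAT3 was higher in shBMAL1 (0.37, SE 0.07, adjusted p = 4.71e-07) and in shARNT (0.20, SE 0.06, adjusted p = 0.00624), and AGPAT2 was lower in shARNT (−0.24, SE 0.07, adjusted p = 0.00178). Both act on lysophosphatidic acid, the step before LPIN1.

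Mitochondrial entry and oxidation had 5 of 18 tested genes lower and 4 higher in shARNT, and 4 lower and 3 higher in shBMAL1. This was 50% and 38.9% of those tested, against 35.4% and 36.8% of all genes, so the share in shBMAL1 was near the background. SLC25A20, which carries acylcarnitine across the inner membrane downstream of CPT1A, rose from 337 ± 19.2 to 486 ± 7.42 in shARNT (0.53, SE 0.11, adjusted p = 2.74e-05), and its log2 fold change in shBMAL1 was −0.09 (SE 0.13, adjusted p = 0.672). ACACB, which makes the malonyl-CoA that inhibits CPT1 at the mitochondrial surface, was lower in shARNT (−0.68, SE 0.15, adjusted p = 2.84e-05) as well as in shBMAL1 (−0.40, SE 0.15, adjusted p = 0.0246). ECI2 was the most lowered of the role in shBMAL1 (−0.56, SE 0.07, adjusted p = 1.22e-15) and was lower in shARNT as well (−0.46, SE 0.06, adjusted p = 9.56e-12). ACADS, the short-chain dehydrogenase, was the most raised in shBMAL1 (0.86, SE 0.10, adjusted p = 2.99e-15).

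In peroxisomes, 2 of 9 tested genes were called in shARNT, both higher, and 2 were lower and 3 higher in shBMAL1, which made 22.2% and 55.6% beside 35.4% and 36.8% of all genes. ABCD3, a peroxisomal transporter, was higher in shARNT (0.36, SE 0.06, adjusted p = 2.32e-07) and also higher in shBMAL1 (0.26, SE 0.07, adjusted p = 0.0023), with a direct difference of −0.10 (SE 0.07, adjusted p = 0.31). The oxidation enzyme EHHADH was higher in shBMAL1 (0.30, SE 0.09, adjusted p = 0.00475). Among lipid-sensing transcription factors 1 of 10 tested was lower and 3 higher in shARNT, and 3 of 11 were lower and 3 higher in shBMAL1, or 40% and 54.5% called where the shares over all genes were 35.4% and 36.8%. PPARGC1A, a coactivator that drives mitochondrial oxidation genes, averaged 49.2 ± 12.3 normalised counts in the controls. Its level was 143 ± 44.6 under shARNT and 415 ± 26.6 under shBMAL1. The control level lay below the minimum of 50 for naming, which PPARGC1A passed because of its knockdown libraries. Like those of FABP1, these levels are a description. PPARD, a fatty acid receptor, was lower in shARNT (−0.44, SE 0.10, adjusted p = 1.18e-04) and higher in shBMAL1 (0.75, SE 0.09, adjusted p = 2.38e-15). CEBPB was lower in shBMAL1 (−0.46, SE 0.15, adjusted p = 0.0106) and higher in shARNT (0.49, SE 0.13, adjusted p = 0.00104).

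**Figure D5:**
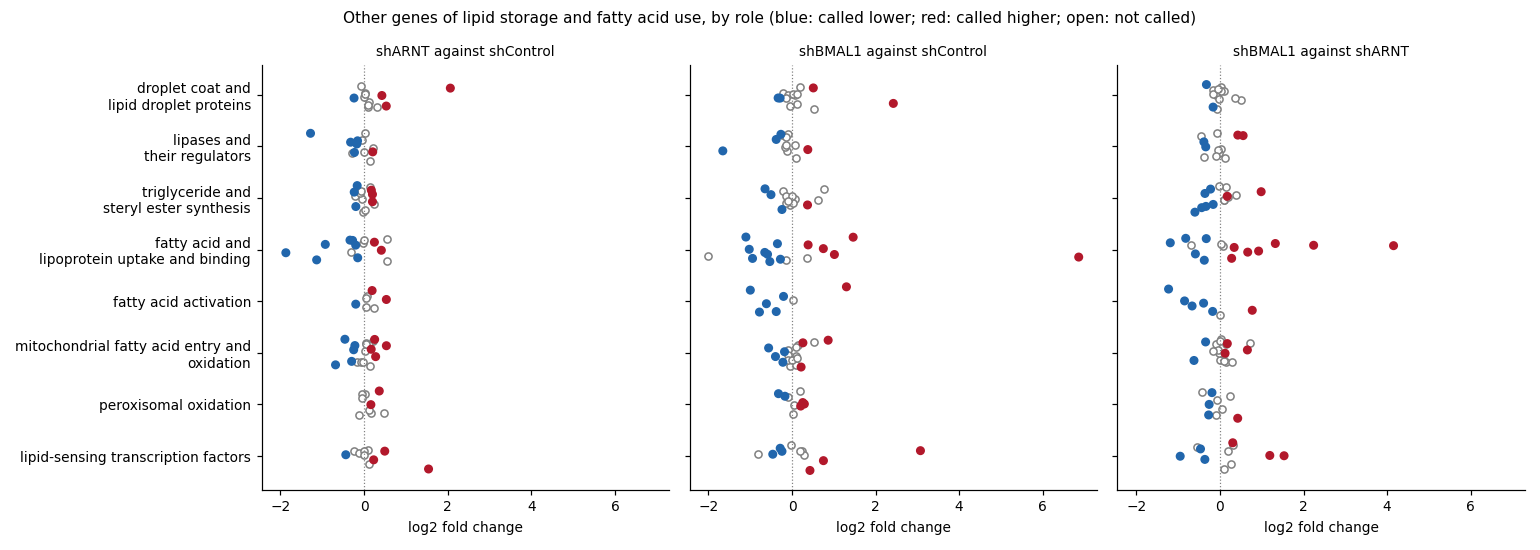
Log2 fold change (horizontal axes) of the tested genes of the 121-gene list by role (vertical axis) in the 2 knockdowns against shControl and, at the right, in shBMAL1 against shARNT. Blue points were called lower, red points higher and open points not called, with random vertical spread. Among fatty acid activation genes, 5 of 7 are blue in shBMAL1 and 1 of 7 in shARNT.

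The genes whose levels followed each member except CD36, whose counts were too low, most closely were found by Pearson's r of log2(normalised count + 1) over the 9 libraries, among 12919 genes whose mean reached 50 normalised counts. The libraries fall into 3 groups and share them across genes, so these values describe likeness of pattern only. The nearest were SLC27A4 and GRK5 to PLIN2 (r = 0.99 each), PFKFB4 and FURIN to PLIN3 (0.99 and 0.98), HDDC3 and GUSB to HILPDA (0.98 and 0.97), and NUDT14 and RBBP8 to PNPLA2 (0.98 and 0.96). For the synthesis genes they were LINC01002 and SUB1 to DGAT1 (0.95 and 0.89), SDCBP and FBXO8 to DGAT2 (0.99 and 0.97), and RAPGEF2 and HOMER3 to LPIN1 (0.99 each). VLDLR was matched by SMPDL3A and TRO and CPT1A by TBC1D2 and PSME3 (0.99 each). SLC27A4, a fatty acid transport protein of the uptake list, read 1634 ± 38.4, 1934 ± 42.3 and 850 ± 30.6 in shControl, shARNT and shBMAL1. Its likeness to PLIN2 was the ground for naming it and is given as a description.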

How the data were processed

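RNA was isolated from 786O cells, and stranded mRNA libraries were sequenced in pairs. The deposited values are estimated counts per gene. According to the study's methods the authors aligned reads to GRCh37 with SeqMan NGen and counted them with ArrayStar, whereas the submitters' processing notes name STAR, DESeq2 and hg38. The file holds no coordinates, and the strand setting is not given in the sources used here. A stand-in value of 0.009 was set to 0, fractional estimated counts (6.14% of the others) were rounded, and 53 rows were added to a row of the same name. In 28 rows the name was a date, and these were fitted but not named.

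Each comparison was fitted in DESeq2 1.42.0 (R 4.3.3) on 6 libraries with median-of-ratios size factors, two-sided Wald tests, filtering on low counts tuned to 0.1, and p-values adjusted over all genes by the Benjamini-Hochberg method. The fitting code was tested on simulated data. Positions and exon lengths come from GENCODE on GRCh37, promoters from RefSeq. Same-group library pairs differed by more than sampling noise (chi-square per degree of freedom 7.60 to 17.6). Labels give the libraries as replicates, and p-values measure the spread between them. The members and lists were chosen with earlier results of these data known. Genes named besides the 10 members were the targeted genes, family relatives, the most lowered and most raised called gene of each role in each knockdown whose mean reached 50 normalised counts, and the 2 genes closest in pattern to each member, with those named for another reason marked as such. Some genes that this rule names are not reported here. Alternatives were edgeR 4.0.16, TMM scaling, other filters and thresholds, a fit of all 9 libraries, the replicate number as a block, no mitochondrial genes, and leaving out each library.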

Additional observations from a re-analysis of the deposited data

How the results depend on the processing

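Of 444 values of the members under alternatives, 406 kept their direction and their side of the threshold, 33 lost the call, 3 gained it and 2 changed sign. The sign changes were those of PNPLA2 in the direct comparison, which was 0.003 and became −0.052 without shARNT library 3 and −0.039 without shBMAL1 library 2 (adjusted p = 0.71 and 0.796), in a range from −0.052 to 0.042 when each library was left out.

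Requiring also an estimated change of 1.5-fold left 1200 of 15171 genes in shARNT, 2606 of 19047 in shBMAL1 and 2058 of 17728 in the direct comparison. Among the members this left 1 lower and 0 higher in shARNT, 2 lower and 0 higher in shBMAL1, and 3 lower and 1 higher in the direct comparison. The fewer calls follow from the added requirement. Over all genes the split also turned at this size of change, with 1070 lower and 1536 higher in shBMAL1 and 697 lower and 1361 higher in the direct comparison. The other alternatives left these counts within 1.5 times. Leaving out each library gave 4197 to 4503, 5748 to 6349 and 5106 to 5929 called genes, with 2 to 3 members lower and 3 to 4 higher in shARNT, 5 to 6 lower and 2 higher in shBMAL1, and 5 lower and 2 to 3 higher in the direct comparison.

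Libraries with the same replicate number did not deviate together (correlations of −0.154 to 0.105 over 12937 genes), so the numbers were not taken to pair them. The replicate block gave 4151, 5743 and 5386 called genes, and HILPDA in shBMAL1 lost its call under it (−0.37, adjusted p = 0.175). HILPDA also missed the stricter threshold of 0.05 (adjusted p = 0.0604). Depth limits CD36, with 0 to 23 reads per library. The upper limit of 3 counts given for a 0 covers counting error only, while the intervals of log2 fold changes include the fitted spread between libraries.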
